A study of Mus musculus with 6 samples.

Results

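The genes that move zinc, iron and copper across membranes, store these metals or sense them were examined in slow-cycling and faster-cycling chondrocytes of the mouse growth plate. The members were every gene of the deposited count table named Slc39a or Slc30a followed by a number, and 14 further genes: *Slc11a1*, *Slc11a2*, *Slc40a1*, *Slc31a1*, *Slc31a2*, *Atp7a*, *Atp7b*, *Mt1*, *Mt2*, *Mt3*, *Mtf1*, *Tfrc*, *Fth1* and *Ftl1*. This rule gave 38 of the 23159 genes, with 14 Slc39a genes, 10 Slc30a genes, 6 iron genes, 4 copper genes and 4 genes of the metallothionein group with *Mtf1*. The rule used gene names and no measured value, although it was set with earlier results of these data known.

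RNA of sorted cells was sequenced in 6 libraries, which came from 3 independent experiments with 1 library of label-retaining chondrocytes (LRCs) and 1 of non-LRCs each. All cells came from mice at P49 (postnatal day 49) that were homozygous for *Peli2(Col2a1-tTA)*, *Col1a1(TRE-H2B-GFP)*, *Col2a1-creER* and *R26R(tdTomato)*, and both groups had the same doxycycline from P21 to P49 and the same tamoxifen at P46 and P47. Doxycycline shuts off transcription of the green histone label, so that cells dilute it as they divide, and tamoxifen turns on tdTomato. The groups were defined by the gate on this label: LRCs were the cells with high label and non-LRCs those with low to middle label, all of them tdTomato-positive. Both groups were sorted from cells negative for CD45, a marker of blood cells. The *Col2a1* promoter, active in chondrocytes, drives both tTA and creER, so both marks depend on the activity of that promoter. Littermates were pooled in each experiment, with about 10000 cells for an LRC library and about 50000 for a non-LRC library, so that input cell number differed with the group and the library of pooled animals is the replicate (*n*=3 per group).

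Zinc enters the cytosol through the ZIP proteins (Slc39a) and leaves it, to the outside or into vesicles and the Golgi, through the ZnT proteins (Slc30a). Metallothioneins bind zinc and copper, and the zinc-sensing transcription factor Mtf1 turns on their genes through metal response elements. Iron bound to transferrin enters by the transferrin receptor Tfrc, leaves the endosome through Slc11a2, is stored in ferritin (heavy chain *Fth1*, light chain *Ftl1*) and is exported by ferroportin (*Slc40a1*). When cellular iron is low, iron regulatory proteins bind a hairpin called the iron-responsive element (IRE), which blocks translation where it lies in a 5′ UTR and protects the mRNA where it lies in the 3′ UTR of *Tfrc*. In cartilage, *Slc39a8* and *Mtf1* are known from the zinc-driven induction of matrix proteases, and loss of *Slc39a13* or *Slc39a14* in mice impairs skeletal growth.

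The IRE sites are shown because iron genes are known for them and the naming rule did not use sequence. UTRs of protein-coding transcripts (GENCODE vM21, GRCm38) were searched for a C, 5 bases, the letters CAGTGN, and 5 bases that pair with the first 5, with G paired to T allowed. Such a match was found in the 5′ UTR of 28 of 20857 genes (0.134%) and in the 3′ UTR of 127 of 20964 genes (0.606%). Of the members, *Fth1*, *Ftl1* and *Slc40a1* had 1 match each in the 5′ UTR and *Tfrc* had 4 in the 3′ UTR. Of the 20964 genes, only *Tfrc* had more than 1 match in the 3′ UTR. No match was found in the UTRs of *Slc11a2* or of the other members. Because the search required the CAGTGN loop and 5 full pairs, sites that depart from this pattern were missed. The lack of a match therefore does not show that a member has no IRE, and a member may have more sites than were matched. In the following runs of 30 bases, 5′ to 3′, capitals mark the CAGTGN loop, and the sites lie at chr19:9982732-9982761 (+ strand) for *Fth1*, chr7:45459778-45459807 (- strand) for *Ftl1*, chr1:45925464-45925493 (- strand) for *Slc40a1*, and chr16:32631219-32631248, chr16:32631598-32631627, chr16:32631663-32631692 and chr16:32631710-32631739 (+ strand) for the sites of *Tfrc*.
Fth1 5′ UTR: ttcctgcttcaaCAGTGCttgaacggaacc
Ftl1 5′ UTR: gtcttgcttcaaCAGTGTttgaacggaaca
Slc40a1 5′ UTR: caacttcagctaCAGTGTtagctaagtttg
Tfrc 3′ UTR, site 1: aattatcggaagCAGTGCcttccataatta
Tfrc 3′ UTR, site 2: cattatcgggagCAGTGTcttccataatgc
Tfrc 3′ UTR, site 3: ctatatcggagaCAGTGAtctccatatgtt
Tfrc 3′ UTR, site 4: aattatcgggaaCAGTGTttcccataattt

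The promoter windows of *Mt1* and *Mt2* are shown because both genes had the same high experiment in either group. They are 240 bases that end 10 bases ahead of the RefSeq start (GRCm38.p6), at chr8:94178839-94179078 and chr8:94172368-94172607, both on the + strand. Capitals mark the metal response element cores TGCACNC and TGCGCNC on either strand. *Mt1* had 1 core and *Mt2* had 3, while 20.4% of 32851 promoter windows of this length held at least 1 core and 1.18% held at least 3. Other annotated transcripts of *Mt1* and *Mt2* begin downstream of these starts, and the bases between were not searched. The counts of cores therefore do not show how many either gene has, or which has more.
Mt1 promoter: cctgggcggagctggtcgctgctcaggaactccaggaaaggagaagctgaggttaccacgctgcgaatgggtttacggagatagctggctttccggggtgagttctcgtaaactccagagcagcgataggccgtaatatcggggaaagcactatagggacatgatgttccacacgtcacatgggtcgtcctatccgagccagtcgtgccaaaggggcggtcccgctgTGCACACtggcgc
Mt2 promoter: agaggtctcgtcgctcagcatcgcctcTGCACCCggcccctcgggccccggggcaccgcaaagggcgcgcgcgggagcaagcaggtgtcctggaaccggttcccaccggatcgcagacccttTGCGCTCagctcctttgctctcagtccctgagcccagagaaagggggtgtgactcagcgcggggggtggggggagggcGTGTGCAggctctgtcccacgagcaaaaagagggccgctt

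Total counts per library ranged from 18943789 to 129559872. Levels are given as CPM (read counts scaled to a common library total after TMM normalisation). The smallest library, of LRCs in experiment 2, stood apart. An undetected gene could still reach 0.143 CPM there, the worth of 3 counts, a limit for counting error only, and 1731 of the genes tested had no count, against 4 to 365 in the others. It was the lowest of the 6 libraries for 33.7% of all genes tested and for 12 of the 31 members tested, and the highest for 22.7% and for 8 members. The chondrocyte markers summed to between 80467 and 228218 CPM in every library. Erythroid markers, of interest for iron genes, summed to at most 1.65 CPM, with *Hbb-b2*, *Hba-a1*, *Hba-a2* and *Klf1* at 0 throughout. The listed globin genes *Hbb-bs* and *Hbb-bt* had no row among the counts, and only reads that mapped without ambiguity were counted. The zeros of the globin genes therefore do not show that their RNA was absent. Macrophage and leukocyte markers summed to between 17.4 and 51.6 CPM, with *C1qa* at 0.

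LRCs and non-LRCs were compared with edgeR's quasi-likelihood test with the experiment as a block, and log2 fold changes above 0 are higher in LRCs. Of the 38 members, 31 passed the filter on low counts. At an adjusted p below 0.05, 176 of 13728 genes (1.28%) were called, with 1 of the 31 members among them. At an unadjusted p below 0.05, 3 members were higher in LRCs (8.89% of all genes) and 5 were lower (9.53% of all genes). The direction was the same in all 3 experiments for 14 members (46.5% of all genes), and the values of the groups did not overlap for 5 members (18.7% of all genes). The members' median log2 fold change was -0.16, beside -0.10 over all genes tested. Because the RNA was measured in bulk, a change in the share of cells that express a gene and a change in its RNA per cell cannot be told apart.

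Per length of transcript, the members spanned a wide range of levels. *Ftl1* (1047 CPM per kb), *Fth1* (968 CPM per kb), *Mt1* (526 CPM per kb) and *Mt2* (255 CPM per kb) were the most abundant, as means over the 6 libraries. These levels depend on the transcript whose length is used, which was 1494 bases for *Fth1* and 968 bases for *Ftl1*. *Slc39a14* (113 CPM per kb) and *Slc39a7* (106 CPM per kb) led the ZIP importers, and *Slc30a5* (30.2 CPM per kb) led the ZnT exporters. The copper importer *Slc31a1* (53.2 CPM per kb) lay near *Tfrc* (43.4 CPM per kb), and *Mtf1* was at 2.01 CPM per kb. The order of *Ftl1* and *Fth1* differed between the groups, and *Fth1* varied 2.31-fold between experiments, so these neighbours were not separated. The same holds for *Slc39a14* and *Slc39a7*, of which the second had the higher mean in non-LRCs.

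**Figure D1:**
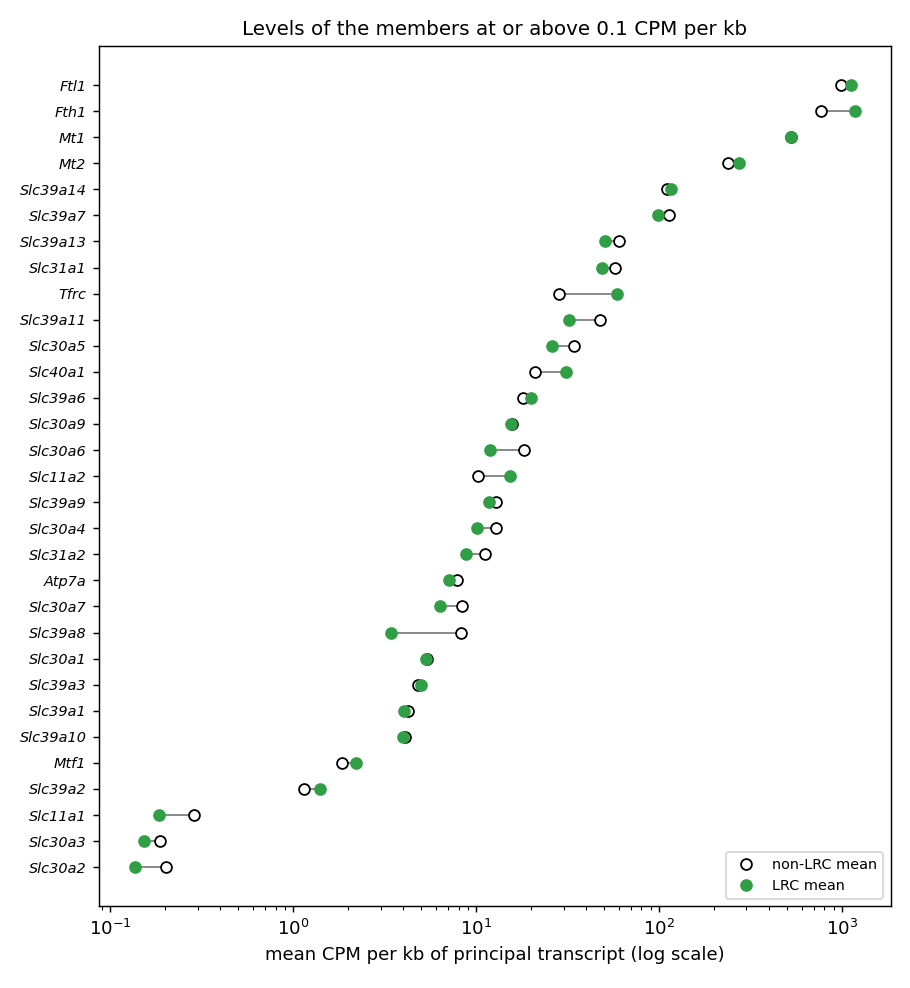
Mean CPM per kb of the principal transcript in LRCs (filled points) and non-LRCs (open points, *n*=3 each) for the members at or above 0.1 CPM per kb, on a log axis and ordered by the mean over both groups. *Tfrc* and *Slc39a8* have the widest gaps between the groups among members above 1 CPM per kb, in opposite directions.

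*Tfrc*, which takes up transferrin-bound iron, was higher in LRCs. Its level in LRCs was 343, 243 and 274 CPM in experiments 1, 2 and 3, and that in non-LRCs was 154, 127 and 133 CPM; values of other genes follow the same order. All LRC libraries lay above all non-LRC libraries, and the log2 difference within an experiment was 1.16, 0.93 and 1.04. LRCs had a mean of 287 ± 51.6 CPM and non-LRCs one of 138 ± 14.1 CPM (s.d., *n*=3), a fitted fold of 2.06. This log2 fold change of 1.05 (SE 0.14, 95% interval 0.71 to 1.38) had an adjusted p of 0.0372, and *Tfrc* was the only member to pass the test. Without experiment 1 its log2 fold change was 0.98 with an adjusted p of 0.167, and without the block 1.06 with an adjusted p of 0.218, while the lowest adjusted p of an alternative was 6.27e-10, by DESeq2. *Tfrc* (chr16:32608920-32632794, + strand, GRCm38) had no overlapping gene in the annotation.

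The other 5 iron members had fitted log2 fold changes above 0, and none of them passed the edgeR test. DESeq2 with the block called *Fth1* (adjusted p = 0.0144) and *Slc11a2* (adjusted p = 0.0458), and limma-voom with the block called *Fth1* (adjusted p = 0.0328). *Slc11a2*, which moves iron from the endosome to the cytosol, was at 64.9, 63.5 and 75.5 CPM in LRCs and at 51.5, 33.0 and 51.7 CPM in non-LRCs. These groups did not overlap, and the log2 fold change was 0.61 (SE 0.18, adjusted p = 0.163). *Slc11a2* shares 402 exonic bases with *Gm5475* on the other strand, and since the strand setting of the counting is not given in the sources used here, reads there are uncertain.

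*Fth1* (chr19:9980598-9985098, + strand), the ferritin heavy chain, was at 1059.5, 2819 and 1358 CPM in LRCs and at 882, 1658 and 902 CPM in non-LRCs. It was higher in LRCs within every experiment, while the groups overlapped because both libraries of experiment 2 were high. The log2 fold change was 0.54 (SE 0.16, adjusted p = 0.158). *Ftl1*, the light chain, was at 852, 1503 and 876 CPM in LRCs and at 727, 1153 and 967 CPM in non-LRCs, with a log2 fold change of 0.16 (SE 0.16, adjusted p = 0.658). Its direction turned in experiment 3. Both ferritin genes have processed pseudogene copies in the genome, so their counts depend on how reads with several matches were handled.

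*Slc40a1*, the iron exporter, was at 128, 60.5 and 124 CPM in LRCs and at 70.2, 65.1 and 77.1 CPM in non-LRCs. LRCs were higher in experiments 1 and 3 and not in experiment 2, and the log2 fold change was 0.48 (SE 0.22, adjusted p = 0.320). Without experiment 2 it was 0.77 with an adjusted p of 0.0430, in a fit that called 5.37% of all genes, and under the other alternatives the adjusted p reached 0.756. *Slc11a1*, an iron transporter of macrophage phagosomes, was at or below 1.65 CPM in every library.

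All 6 iron genes thus had a fitted log2 fold change above 0, with a median of 0.51, against 6038 of the 13728 genes tested. This did not extend to 25 further iron genes tested outside the rule, of which 12 were above 0 and 13 below, with a median of -0.06. The group means of *Slc11a1* had the opposite order, with 0.428 CPM for LRCs and 0.663 CPM for non-LRCs. The 3 members with an IRE match in the 5′ UTR (*Fth1*, *Ftl1*, *Slc40a1*) had log2 fold changes of 0.54, 0.16 and 0.48, and *Tfrc*, with its matches in the 3′ UTR, had 1.05. Of the 4 markers of superficial articular or synovial cells, *Prg4* (lubricin) was called as higher in LRCs, at 1017, 109 and 869 CPM against 29.5, 3.22 and 6.36 CPM in non-LRCs. It made up most of the sum of the list, which was between 126 and 1034 CPM in LRCs and between 22.0 and 44.4 CPM in non-LRCs. The other 3 markers did not move as a group: *Cd55* had a log2 fold change of -0.15 (adjusted p = 0.812), *Erg* had 1.39 (adjusted p = 0.344) and *Thy1* was below the filter. The dissociation stress list summed to between 2594 and 4053 CPM in LRCs and between 1952 and 3492 CPM in non-LRCs. Of its 14 genes, 10 had a fitted log2 fold change above 0 and 4 below, and *Hspa1a* (2.89, adjusted p = 0.0275) was called by edgeR. *Hspa1b* (2.90, adjusted p = 0.0619), *Egr1* (0.71, adjusted p = 0.0731) and *Fos* (1.04, adjusted p = 0.175) were higher in LRCs in every experiment. *Tsc22d3* (-0.54, adjusted p = 0.127) was lower in every experiment. The part of *Prg4*-expressing cells or of stress genes in the iron results was not tested.

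**Figure D2:**
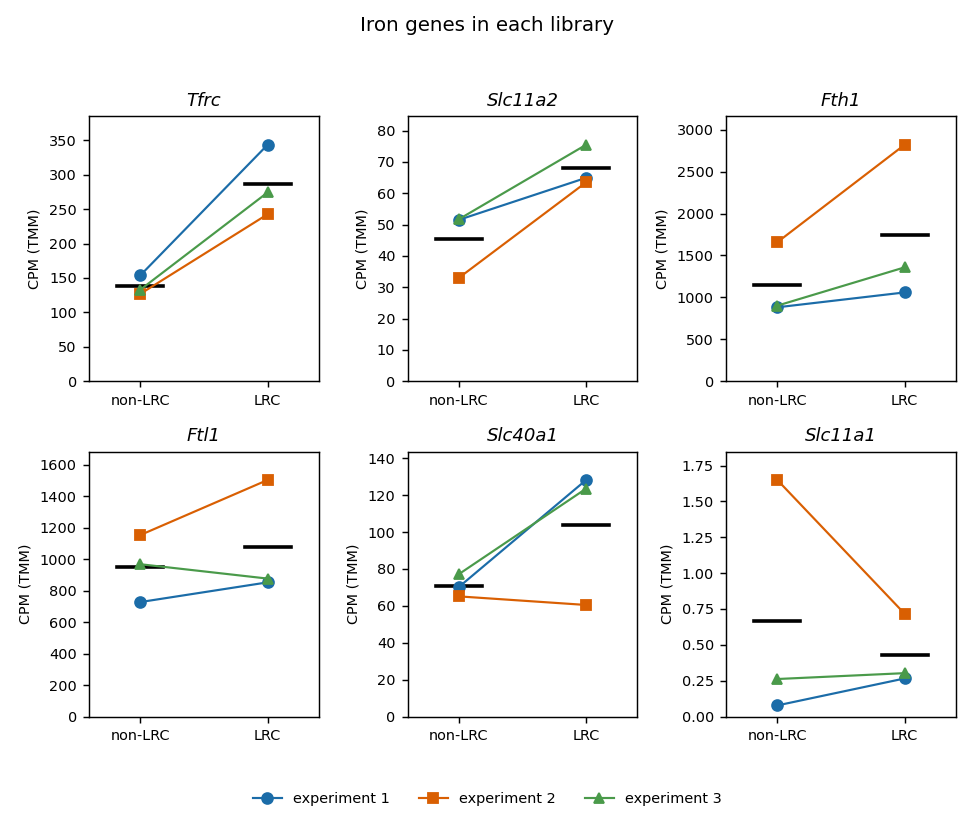
TMM-normalised CPM of the 6 iron genes in non-LRC and LRC libraries, with a line for each experiment and a black bar for the group mean (*n*=3). The lines of *Tfrc*, *Slc11a2* and *Fth1* rise toward LRCs in all 3 experiments, whereas those of *Ftl1*, *Slc40a1* and *Slc11a1* do not.

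Other genes of metal handling came from a list of zinc, iron and copper genes outside the rule. Of 47 with a row, 38 were tested, and none had an adjusted p below 0.05 by edgeR. At an unadjusted p below 0.05 by edgeR, 3 were higher in LRCs (8.89% of all genes) and 3 were lower (9.53% of all genes). DESeq2 with the block called 6 of these 38 and limma-voom with the block 5, in fits that called 12.3% and 9.91% of all genes. Their median log2 fold change was -0.08. The 4 with the lowest p were in the handling of iron or copper. *Steap3*, a ferrireductase of the endosome that works beside Tfrc and Slc11a2, was at 138, 82.3 and 73.6 CPM in LRCs and at 87.6, 53.7 and 37.8 CPM in non-LRCs, with a log2 fold change of 0.74 (adjusted p = 0.0822). *Steap1*, of the same family, was at 37.4, 59.1 and 52.9 CPM in LRCs and at 69.1, 105 and 87.6 CPM in non-LRCs, with a log2 fold change of -0.81 (adjusted p = 0.0653). *Cox17*, a copper chaperone for cytochrome c oxidase, had a log2 fold change of -1.24 (adjusted p = 0.0681), and *Commd1*, a factor in copper export, had -0.85 (adjusted p = 0.0934). *Steap1*, *Cox17* and *Commd1* were lower in LRCs in all 3 experiments, and *Steap3* was higher in all 3.

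Of the ZIP importers, 11 of 14 were tested, 4 with a fitted log2 fold change above 0 and 7 below. Their median was -0.20. Over all 13728 genes tested, 6038 were above 0 and 7688 below. None of the ZIP importers passed the edgeR test, and 2 were lower at an unadjusted p below 0.05 (9.53% of all genes). *Slc39a8* (chr3:135825279-135888572, + strand, GRCm38), which carries zinc, manganese and iron into cells, had the largest difference of the tested ZIP members. It was at 7.25, 12.5 and 16.4 CPM in LRCs and at 27.1, 28.8 and 31.7 CPM in non-LRCs. The groups did not overlap, and the log2 difference within an experiment was -1.90, -1.20 and -0.95. LRCs had a mean of 12.1 ± 4.61 CPM and non-LRCs one of 29.2 ± 2.34 CPM (s.d., *n*=3), and the log2 fold change was -1.35 (SE 0.27, 95% interval -2.02 to -0.68, adjusted p = 0.0808). With at least 10 counts required in every library, the adjusted p was 0.0312, in a fit that called 6.75% of all genes, and without experiment 2 it was 0.0384, in a fit that called 5.37%. It was 0.319 without experiment 1, where the log2 fold change was -1.08, 0.1253 without experiment 3 and 0.309 without the block. Over all alternatives the adjusted p lay between 0.000467, by DESeq2, and 0.319.

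*Slc39a11*, a zinc transporter of intracellular membranes, was at 89.3, 70.2 and 110.1 CPM in LRCs and at 135, 92.0 and 168 CPM in non-LRCs. It was lower in LRCs within every experiment although the groups overlapped, with a log2 fold change of -0.53 (SE 0.14, adjusted p = 0.127). DESeq2 with the block called 12.3% of all genes and 5 members, *Tfrc*, *Fth1* and *Slc11a2* as higher in LRCs and *Slc39a8* and *Slc39a11* as lower. limma-voom with the block called 9.91% of all genes and 4 of these members, all but *Slc11a2*.

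*Slc39a13* and *Slc39a14*, the importers tied to skeletal growth, were well expressed in both groups. *Slc39a13*, which releases zinc from intracellular stores, was at 128, 129 and 117 CPM in LRCs and at 157, 145 and 144 CPM in non-LRCs. The groups did not overlap, the log2 fold change was -0.25 (SE 0.13, 95% interval -0.58 to 0.07) and the adjusted p was 0.375. *Slc39a13* varied only 1.09-fold between experiments, the least of the tested members. *Slc39a14*, an importer of zinc, iron and manganese at the plasma membrane, was at 731, 316 and 665 CPM in LRCs and at 680.3, 410.0 and 530.2 CPM in non-LRCs. Its log2 fold change was 0.02 (95% interval -0.42 to 0.46, adjusted p = 0.964), and the libraries of experiment 2 were the lowest in both groups. *Slc39a7*, which releases zinc from the endoplasmic reticulum, had a log2 fold change of -0.21 (adjusted p = 0.551), and 2084 of its exonic bases are shared with *Gm20427*, so its counts are uncertain. Exons of *Slc39a13* overlap *Psmc3* on the other strand over 215 bases. The remaining tested ZIP members had log2 fold changes between -0.44 (*Slc39a9*) and 0.40 (*Slc39a2*). *Slc39a5* had 0 counts in every library, and *Slc39a4* and *Slc39a12* did not pass the filter on low counts.

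Of the ZnT exporters, 8 of 10 were tested, with a median log2 fold change of -0.41. The fitted value was below 0 for 7 of them, and for 7688 of the 13728 genes tested. Those 7 include *Slc30a2* (-0.57, SE 1.39) and *Slc30a3* (-2.99, SE 3.59), both at or below 1 CPM in every library. None of the 8 passed the edgeR test, DESeq2 or limma-voom. Of the tested ZnT genes, 3 were lower in LRCs at an unadjusted p below 0.05 (9.53% of all genes). They load zinc into the early secretory pathway and vesicles, and were lower in LRCs in each experiment. *Slc30a6* was at 25.0, 26.7 and 24.9 CPM in LRCs and at 31.5, 41.7 and 45.0 CPM in non-LRCs. These groups did not overlap, and the log2 fold change was -0.61 (SE 0.20, adjusted p = 0.188). *Slc30a5*, the partner of Slc30a6 in a complex, was at 88.2, 66.1 and 93.5 CPM in LRCs and at 108, 88.4 and 131 CPM in non-LRCs, with a log2 fold change of -0.40 (SE 0.14, adjusted p = 0.212). *Slc30a7* was at 70.1, 47.2 and 54.4 CPM in LRCs and at 83.9, 64.9 and 78.4 CPM in non-LRCs, with a log2 fold change of -0.42 (SE 0.15, adjusted p = 0.228). For *Slc30a5* and *Slc30a7* the groups overlapped, and the exons of *Slc30a7* overlap *Gm43106* and *Gm6649* on the other strand.

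*Slc30a4*, a vesicle exporter, was also lower in LRCs in every experiment, with a log2 fold change of -0.38 (SE 0.16, adjusted p = 0.288). *Slc30a1*, the zinc exporter of the plasma membrane and an Mtf1 target, was at 26.0, 37.2 and 20.0 CPM in LRCs and at 32.7, 33.4 and 18.8 CPM in non-LRCs. Its log2 fold change was -0.03 (95% interval -0.54 to 0.47, adjusted p = 0.952). *Slc30a9* was at 0.02 on the log2 scale. *Slc30a2* and *Slc30a3* stayed at or below 1 CPM in every library, and *Slc30a8* and *Slc30a10* did not pass the filter.

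**Figure D3:**
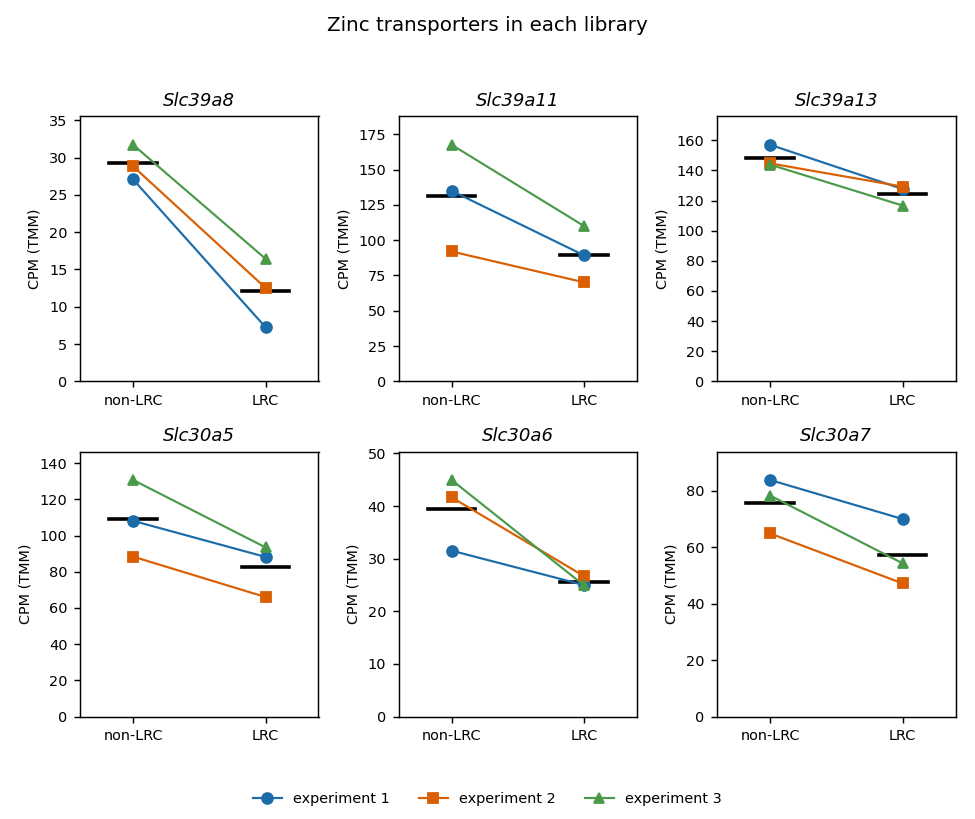
TMM-normalised CPM of 6 zinc transporters in non-LRC and LRC libraries, with a line for each experiment and a black bar for the group mean (*n*=3). Each line falls toward LRCs, and the groups separate for *Slc39a8*, *Slc39a13* and *Slc30a6*, while none of the 6 passed the edgeR test across all genes (*Slc39a8* and *Slc39a11* passed by DESeq2 and limma-voom).

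The 3 tested copper genes had fitted log2 fold changes below 0, as had 7688 of the 13728 genes tested. None of the 3 passed the test by edgeR, DESeq2 or limma-voom, and none had an unadjusted p below 0.05 by edgeR. *Slc31a1*, the high-affinity copper importer, was at 221, 109 and 215 CPM in LRCs and at 172, 217 and 254 CPM in non-LRCs, with a log2 fold change of -0.29 (SE 0.27, adjusted p = 0.616). *Atp7a*, the pump that loads copper into secreted enzymes such as lysyl oxidase, was at 42.7, 13.2 and 48.7 CPM in LRCs and at 51.9, 21.1 and 42.4 CPM in non-LRCs, with a log2 fold change of -0.25 (SE 0.23, adjusted p = 0.615). For each of them and for *Slc31a2* (-0.38, adjusted p = 0.504), the direction differed between experiments, and the LRC library of experiment 2 was the lowest of the 6. Without experiment 2 the log2 fold changes were 0.06 for *Slc31a1*, -0.04 for *Atp7a* and -0.15 for *Slc31a2*, so that the shared sign rests on that experiment. *Atp7b*, the copper pump of hepatocytes, had no count in any LRC library, which allows up to 0.0257, 0.143 and 0.0698 CPM, while its non-LRC counts were 39, 30 and 5 (0.378, 0.785 and 0.101 CPM). It did not pass the filter, and its adjusted p was 0.304 without a filter and 0.618 without experiment 3.

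**Figure D4:**
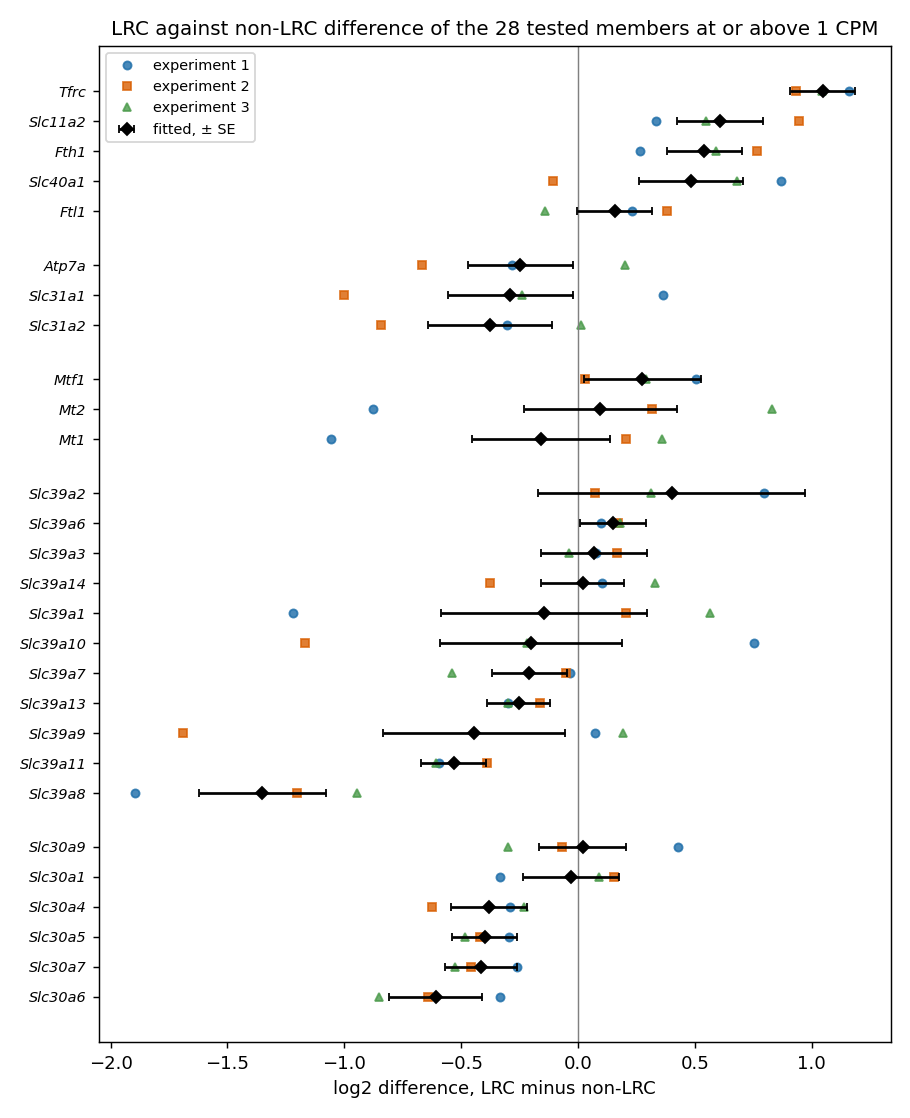
Fitted log2 fold change ± SE (diamonds) and the log2 CPM difference within each of the 3 experiments (coloured symbols) for the 28 tested members with a mean of at least 1 CPM, grouped as iron, copper, metallothionein and Mtf1, ZIP and ZnT genes. The points of *Tfrc* cluster near 1 and those of *Slc39a8* lie between -1.90 and -0.95, whereas *Mt1*, *Mt2*, *Slc39a1* and *Slc39a10* spread to both sides of 0.

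The metallothioneins differed between experiments more than between groups. *Mt1* was at 102, 611 and 156 CPM in LRCs and at 212, 530 and 122 CPM in non-LRCs. *Mt2* was at 44.8, 292 and 83.1 CPM in LRCs and at 82.3, 234 and 46.7 CPM in non-LRCs. Both were highest in the libraries of experiment 2, and both were lower in LRCs in experiment 1 and higher in experiments 2 and 3. The mean of the libraries of an experiment differed 4.10-fold for *Mt1* and 4.14-fold for *Mt2* between the highest and the lowest experiment, beside a median of 1.76-fold over all genes tested. The log2 fold change between the groups was -0.16 for *Mt1* (95% interval -0.88 to 0.56, adjusted p = 0.815) and 0.10 for *Mt2* (95% interval -0.71 to 0.90, adjusted p = 0.904). *Mt3*, a metallothionein of the brain, had at most 3 counts in a library, and *Mt2* shares 432 exonic bases with *Gm45774* on the other strand, as *Mtf1* does 721 with *1110065P20Rik* and *Slc30a1* does 468 with *1700034H15Rik*.

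*Mtf1*, the zinc sensor, was at 16.4, 18.02 and 15.7 CPM in LRCs and at 11.6, 17.7 and 12.8 CPM in non-LRCs, with a log2 fold change of 0.27 (SE 0.25, adjusted p = 0.612). Other members that stood out in experiment 2 included *Slc39a1*, a ZIP importer of the plasma membrane, at 19.7 and 17.1 CPM there and between 3.34 and 9.56 CPM elsewhere. *Slc39a2* and *Fth1* were also highest in both libraries there, while *Atp7a* and *Slc39a9* were lowest in both. Experiment 2 had the highest mean for 9 of the 31 members tested (38.5% of all genes), and 10 members differed more than 2-fold between experiments (38.7% of all genes). Of the hypertrophic markers, *Spp1* was highest in experiment 2 in both groups, at 398, 1728 and 1111 CPM in LRCs and at 416, 1683 and 1100.0 CPM in non-LRCs. *Col10a1* was highest in experiment 3, at 1.93, 0.143 and 76.0 CPM in LRCs and at 12.2, 15.7 and 264 CPM in non-LRCs, and *Ihh* was also highest there, so these markers did not share 1 order of experiments. Their part in the spread between experiments was not tested.

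**Figure D5:**
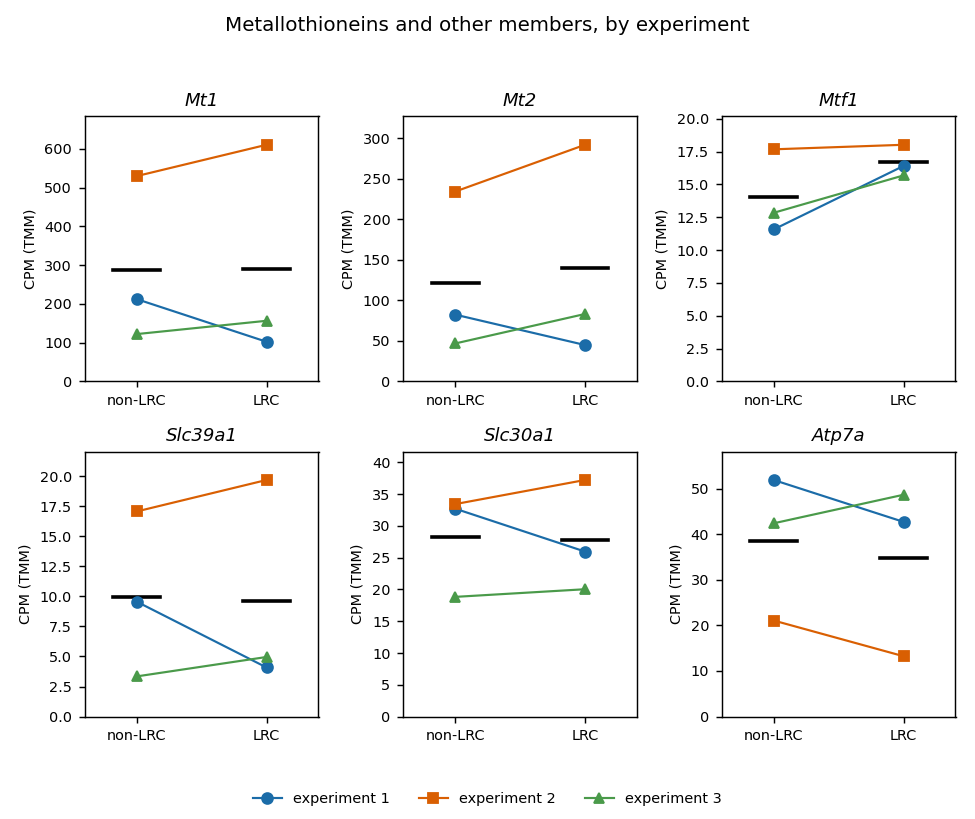
TMM-normalised CPM of *Mt1*, *Mt2*, *Mtf1*, *Slc39a1*, *Slc30a1* and *Atp7a* in non-LRC and LRC libraries, with a line for each experiment and a black bar for the group mean (*n*=3). *Mt1*, *Mt2* and *Slc39a1* are highest and *Atp7a* is lowest in both libraries of experiment 2.

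Of 5 matrix protease genes that the zinc importer Slc39a8 and Mtf1 are known to induce in cartilage, 1 was called by edgeR (1.28% of all genes). *Mmp3*, which degrades proteoglycans and other matrix proteins, was at 300, 337 and 396 CPM in LRCs and at 120.3, 140 and 142 CPM in non-LRCs, with a log2 fold change of 1.35 (SE 0.14, adjusted p = 0.0203). Its groups did not overlap. *Adamts5*, an aggrecanase, was at 11.9, 2.39 and 16.6 CPM in LRCs and at 51.1, 76.1 and 40.1 CPM in non-LRCs, with a log2 fold change of -2.63 (adjusted p = 0.138). *Mmp9* (1.47, adjusted p = 0.502), *Mmp12* (1.91, adjusted p = 0.475) and *Mmp13* (-0.57, adjusted p = 0.612) did not pass the test. By the fitted values, *Slc39a8* (-1.35) had the sign of *Adamts5* and *Mmp13* and the opposite sign to the other 3. The log2 difference within an experiment changed sign between experiments for *Mmp12* (3.42, 3.03 and -1.80) and *Mmp13* (1.08, -1.13 and -1.56). *Mmp9* was higher in LRCs in each experiment but at or below 2.12 CPM in every library. *Mmp3* and *Adamts5* each kept their direction in every experiment, and these directions were opposite. A link of *Slc39a8* to these genes was not tested.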

How the data were processed

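RNA-seq counts of 3 LRC and 3 non-LRC libraries were analysed. The authors aligned 50-cycle single-end reads of amplified cDNA to mm10 (GRCm38) and used HTSeq to count reads that mapped without ambiguity. They deposited these raw counts per gene; the labels name TopHat2 2.0.13 and Bowtie2 2.2.1. The annotation and strand setting are not given in the sources used here. The deposited size-factor-normalised and rlog tables were not used. Total counts ranged from 18943789 to 129559872.

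The tests were run with edgeR 4.0.16 under R 4.3.3 (filterByExpr with 10 as minimum count and 15 as minimum total, TMM, quasi-likelihood test, prior count 0.125, Benjamini-Hochberg adjustment over the 13728 genes tested, threshold 0.05), with the experiment as a block, as the study's methods pair samples by mouse of origin. To compare the libraries of an experiment, the departure of each from its group mean was correlated across genes. This gave Pearson r of 0.197, 0.288 and 0.336. Depth was also shared within experiments: experiment 1 had the most counts in both groups (129559872 in LRCs, 110269738 in non-LRCs). These r values therefore do not show that the libraries came from the same mice. SE was the log2 fold change over the root of F. Log2 CPM differences used a prior count of 2. CPM per kb used the principal transcript (GENCODE vM21). The fits were tested on data simulated without differences between experiments, so the need for the block was not tested there.

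The members and lists were chosen with earlier results of these data known. Named genes were members with an adjusted or unadjusted p below 0.05, the most abundant per length of each transporter family, *Mt1*, *Mt2*, *Mtf1*, *Tfrc*, *Fth1*, *Ftl1*, *Slc40a1*, *Slc11a2*, *Slc31a1*, *Atp7a*, *Slc39a8*, *Slc39a13*, *Slc39a14* and *Slc30a1*, and the called or 4 lowest-p other metal genes; further genes were named after their values were seen. Alternatives were the fit without block, DESeq2 1.42.0 and limma-voom (limma 3.58.1) with it, edgeR on DESeq2's size factors, a filter of 10 counts in each library, none at all, a prior count of 2, and leaving out each experiment. With the block, p-values set the LRC to non-LRC difference against its variation across 3 experiments of pooled littermates. Shifts in level common to both libraries of an experiment are taken up by the block.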

Additional observations from a re-analysis of the deposited data

How the results depend on the processing

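The count of genes called, 176, was 1692 by DESeq2 with the block, 1361 by limma-voom with the block, 751 with at least 10 counts required in every library, and between 35 and 782 when an experiment was left out, 782 of them without experiment 2. The count of members called, 1, was 5, 4 and 2 under the first 3 of these and between 0 and 3 when an experiment was left out. In the unpaired fit without the block, 1 gene and 0 members were called by edgeR, and 3 members had an unadjusted p below 0.05; *Tfrc* kept a log2 fold change of 1.06 with an adjusted p of 0.218. Fits with DESeq2 size factors (199 genes, 1 member) and with no filter (256 genes, 1 member) differed less. Of 180 single-gene fold changes under these alternatives, 8 had the opposite sign, 10 gained a call and 2, both of *Tfrc*, lost it. *Tfrc* lost its call without the block and without experiment 1 (0.98, adjusted p = 0.167), and *Slc40a1* gained one without experiment 2 (0.77, adjusted p = 0.0430). Depth was limited by the LRC library of experiment 2.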
